A study of Mus musculus with 3 samples.

Results

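Pericyte-marker cells were chosen from 3 droplet single-cell libraries of mouse retina by the UMIs (unique molecular identifiers, counted transcripts) of 4 pericyte genes: *Rgs5*, a regulator of G protein signalling; *Kcnj8*, the pore subunit of the vascular ATP-sensitive potassium (K-ATP) channel; *Pdgfrb*, the receptor for PDGF-B; and *Higd1b*, a member of the hypoxia-inducible domain family. A cell was a member when these genes together held at least 5 of every 10000 of its UMIs and the Müller glia (MG) genes *Glul*, *Rlbp1*, *Aqp4* and *Kcnj10* together held under 30. Only barcodes with 1000 or more detected genes, no more than 100000 UMIs and no more than 15% of them mitochondrial were considered. Of 38621 such cells, 353 were members: 80 Control, 132 CCA and 141 CCANT cells. The values of the rule genes chose the members, so their levels are given as a description.

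All mice were Glast-CreERT2; R26-CAG-LSL-Tdt, given tamoxifen from postnatal day (P) 20 at 75 mg/kg per the labels, and their retinas were taken at P51. The study's methods give another dose and start for tamoxifen labelling of most MG, and which applied to these mice was not settled. Control mice received AAV7m8-GFAP-GFP-LacZsh at P28. CCA mice received AAV7m8-GFAP-cyclin D1-p27sh together with a small amount of the Control vector at P28, which raises cyclin D1 and lowers the cell cycle inhibitor p27 in MG. CCANT mice had the CCA treatment and then NMDA at P35 and Trichostatin A (TSA), a histone deacetylase inhibitor, at P37. Each library pooled 2 to 4 retinas of 1 group and was sorted for tdTomato, which the Glast-driven Cre turns on in MG. Pericytes are therefore outside the cells that the sort and the GFAP promoter of the vectors were meant for.

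Pericytes sit on the outer wall of capillaries, inside the basement membrane that they share with the endothelium. They hold the capillary wall in place through PDGF-B and angiopoietin signals, and they take part in setting capillary width through K-ATP channels, calcium entry and cyclic GMP. The retina has a dense pericyte cover. On arterioles the same position is taken by smooth muscle cells, which share several of these genes and carry more of the contractile proteins.

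Member libraries held 886399 UMIs in Control, 1928973 in CCA and 2654754 in CCANT, with a median of 10143, 11798.5 and 19318 UMIs per cell. Levels are summed UMIs of a library's members per 1000000 UMIs of the same cells (CPM), which cannot tell fewer expressing cells from less RNA per cell. Each group is a single library, so no test was made. Brackets give exact 95% intervals, which cover counting error only and leave out differences between mice. A gene is called different when it had at least 50 UMIs over the 2 libraries compared, differed by at least 2-fold, and its interval left out equality. CCA and CCANT are both compared with the same Control library. *Xist* and Y-linked UMIs set the libraries apart as well. Y-linked UMIs without *Xist* were found in 65 of 80 Control members and *Xist* was found in none of them, while 125 of 132 CCA members had *Xist* UMIs and no Y-linked UMIs. In CCANT, 50 members had *Xist* only, 45 Y-linked genes only, 35 both and 11 neither. Sex and treatment therefore cannot be told apart between Control and CCA. No barcode was a member in more than 1 library, although the libraries shared 42 to 47 passing barcodes by pairs.

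Members made up 0.703% (0.558 to 0.875) of the cells in Control, 1.01% (0.846 to 1.20) in CCA and 0.994% (0.837 to 1.17) in CCANT. These shares depend on the sort. They also hold cells of several kinds. A total of 181 members carried UMIs of 3 or 4 of the rule genes, 56 in Control, 91 in CCA and 34 in CCANT, which is 0.492% (0.372 to 0.639), 0.697% (0.561 to 0.855) and 0.240% (0.166 to 0.335) of all cells. The CCANT library thus had the most members and the fewest with several markers.

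**Figure D1:**
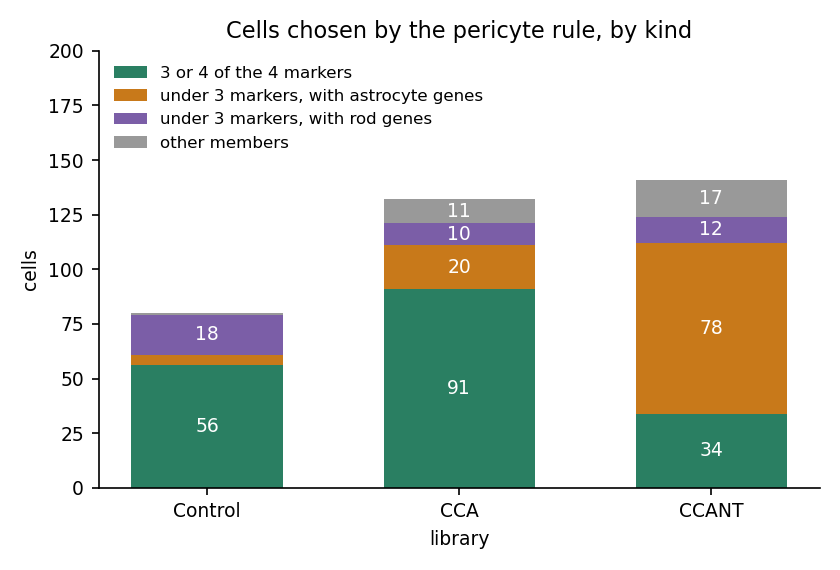
Stacked bars give the number of cells chosen by the rule in each library, split into cells with 3 or 4 of the 4 rule genes, cells under 3 with astrocyte genes, cells under 3 with rod genes, and the rest. The first kind holds 56, 91 and 34 cells and the astrocyte-gene kind 5, 20 and 78 in Control, CCA and CCANT.

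Many of the other members met the rule through *Rgs5* alone. Of 151 members with a single rule gene, 117 had *Rgs5*, 13 of them in Control, 28 in CCA and 76 in CCANT. A further 31 had only *Pdgfrb*. Members with 1 or 2 rule-gene UMIs in all numbered 51, and 290 had at least 10. The 3 cells nearest above the lower limit stood at 5.02, 5.08 and 5.08 rule-gene UMIs per 10000, and the 3 nearest below at 4.98, 4.97 and 4.96. Between 5 and 6 per 10000 there were 42 members, between 4 and 5 there were 78 cells left out, and none of either had 3 or 4 rule genes. The limit on MG genes left out 115 cells over the rule-gene limit, 24 of which had 3 or 4 rule genes.

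The rule genes other than *Rgs5* were near 0 in 103 members, which follows in part from how these members were chosen. These had under 3 rule genes and at least 10 UMIs per 10000 of *Pax2*, *S100b*, *Gfap* and *Igfbp5*, genes known from retinal astrocytes, which lie on the nerve fibre layer; this limit was set after the values were seen. There were 5 in Control, 20 in CCA and 78 in CCANT, which is 6.25%, 15.2% and 55.3% of the members, and because they were deep cells they held 22.2%, 27.6% and 78.0% of the member UMIs. *Rgs5* stood at 929, 1936 and 1427 CPM in them, while *Kcnj8* was at 0 in every library and *Higd1b* at 0, 0 and 0.483 CPM. *Pdgfrb* was at 5.07, 3.76 and 6.76 CPM and *Abcc9*, the regulatory subunit of the K-ATP channel, at 0, 1.88 and 2.41 CPM.

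By choice these members carried *Pax2*, an astrocyte transcription factor of the retina, at 553, 499 and 339 CPM. *Gfap*, the glial intermediate filament, was at 3344, 3252 and 3538 CPM and the calcium-binding protein gene *S100b* at 1091, 1303 and 1733 CPM. *Pdgfra*, the receptor for PDGF-A that retinal astrocytes use and which did not enter the choice, was at 858, 849 and 958 CPM. Cells with MG markers had *Rgs5* at 2.49, *Pax2* at 0.203, *Gfap* at 37.3 and *Pdgfra* at 1.49 CPM over the 3 libraries. Their *Rgs5* level is limited by the definition of these cells, which keeps rule genes under the lower limit for members. tdTomato UMIs were found in 3 of 5, 12 of 20 and 32 of 78 of these members. In mice with the same Cre and another reporter, the study marks reporter-positive astrocytes in the ganglion cell layer. Not every cell with *Pax2* was a member: at least 2 *Pax2* UMIs were found in 5, 20 and 72 members, and in 12, 16 and 39 other cells within the MG limit, with *Rgs5* at 6.05, 55.0 and 198 CPM. A further 4, 6 and 33 cells with at least 2 *Pax2* UMIs lay over the MG limit, with *Rgs5* at 429, 980 and 953 CPM. Below, the 103 cells are called members with astrocyte genes, and no cell type name is given to them.

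**Figure D2:**
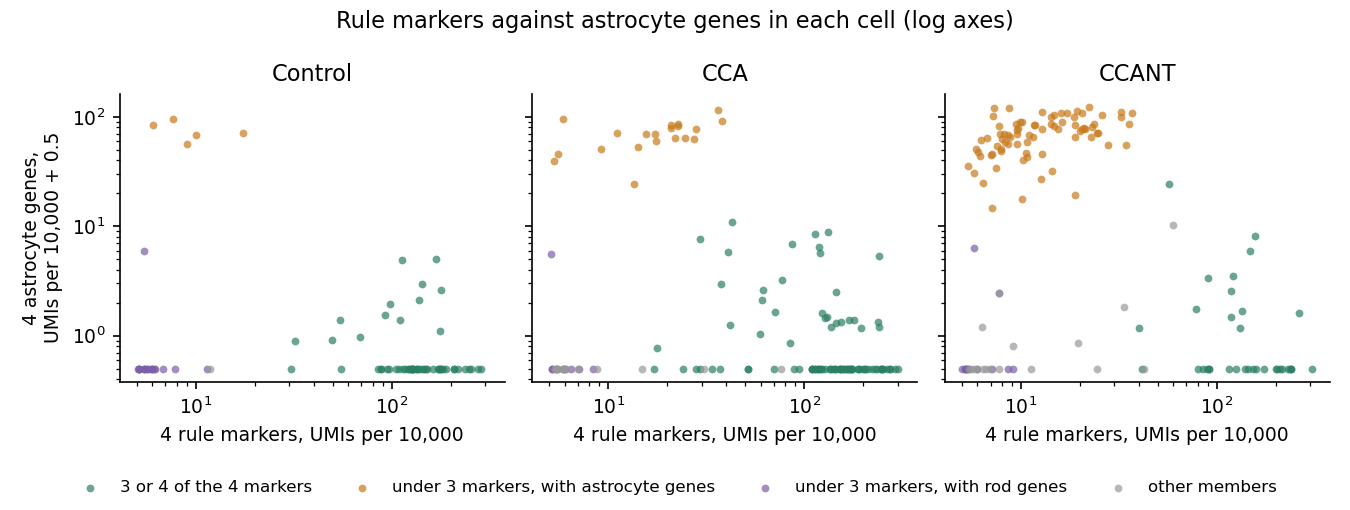
Each point is 1 member, with the summed level of the 4 rule genes on the x axis and of *Pax2*, *S100b*, *Gfap* and *Igfbp5* plus 0.5 on the y axis, both in UMIs per 10000 on log axes, 1 panel per library. Members with 3 or 4 rule genes lie at the lower right, around a median of 134 to 138 rule-gene UMIs per 10000, and the astrocyte-gene members at the upper left, most numerous in CCANT.

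Another 40 members, 18 in Control, 10 in CCA and 12 in CCANT, had under 3 rule genes and at least 10 UMIs per 10000 of the rod genes *Nrl*, *Pde6a*, *Pde6b* and *Cnga1*. They were shallow, with a median of 1831, 1836.5 and 1935 UMIs, so that a single UMI could meet the rule. The remaining 29 members, 1, 11 and 17 by library, had neither set, and 1 CCANT cell among them carried contractile genes. Of the 29, 18 (1, 7 and 10) reached the endothelial class limit of 5 UMIs per 10000 of *Pecam1*, *Cldn5*, *Cdh5* and *Flt1*. *Flt1* is also carried by cells with MG markers, so this limit alone does not show endothelial RNA. Unsupervised clustering of the 353 cells, which used all their genes and is no independent check, gave 7 clusters. The largest, led by *Rgs5*, *Abcc9* and *Mgp*, held 156 cells (51, 74 and 31 by library), and the next, led by *Pdgfra*, *Rgs5* and *Pax2*, held 92 cells (4, 19 and 69). A cluster of 31 cells held 19 of the 29 remaining members and had *Pecam1* and *Cldn5* at 0 CPM. One of 36 cells mixed 27 members with rod genes and 8 with 3 or 4 rule genes. At a finer resolution of 1 there were 10 clusters. The largest of these, led by *Pdgfra*, *Pax2* and *Rgs5*, held 82 cells. The next, led by *Abcc9* and by *Rgs5*, held 66 and 64 cells.

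The share of members with a UMI of each gene was also compared. After every cell had been thinned to 2000 UMIs, which kept 62, 119 and 130 members, *Rgs5* was detected in 95.2%, 96.6% and 84.6% of Control, CCA and CCANT members. *Kcnj8* was detected in 41.9%, 31.1% and 13.1%, and *Higd1b* in 67.7%, 57.1% and 23.8%. Without thinning, *Kcnj8* was detected in 41.7% and *Higd1b* in 70.5% of CCA members. Among members with 3 or 4 rule genes (54, 91 and 34 cells at that depth), *Kcnj8* was detected in 50%, 40.7% and 41.2%, *Higd1b* in 75.9%, 65.9% and 79.4% and *Abcc9* in 77.8%, 58.2% and 67.6%. Cells with MG markers showed *Rgs5* in 0.281%, 0.522% and 0.316% and *Kcnj8* in 0%, 0.0474% and 0% at the same depth. These cells were defined with rule genes under the lower limit for members. Their low shares therefore follow in part from that choice and are no independent check. *Pdgfrb*, under the same limit, is different, since 13.6% to 14.9% of the cells with MG markers had a UMI of it.

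The 181 members with 3 or 4 rule genes carried mural genes that the rule had not used. The genes named in this and the next paragraph were chosen by their ratio to other cells. Their contrast follows from that choice and is a description. *Cox4i2* of the pericyte list went the other way against cells with MG markers, as given below. *Abcc9*, the partner of *Kcnj8* in the vascular K-ATP channel, was at 1351 CPM against 0.81 in all cells that were not members. The *Kcnj8* and *Abcc9* genes are neighbours, at chr6:142564837-142571614 and chr6:142587862-142702315 (both on the minus strand, GRCm38). *Slc38a11*, an amino acid transporter gene, stood at 554 against 0.307 CPM, and the olfactory receptor gene *Olfr558* at 139 against 0.0736 CPM. The long noncoding RNA *Carmn* was at 386 against 0.242, the intermediate filament gene *Des* at 236 against 0.204 and the gap junction gene *Gja4* at 267 against 0.245 CPM.

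Surface and matrix genes of mural cells were also among the genes chosen by this ratio. *Cspg4* (NG2), a proteoglycan used to stain pericytes, was at 483 against 0.951 CPM and *Cd248* (endosialin) at 198 against 0.221 CPM. *Mgp*, an inhibitor of calcification, was at 3743 against 4.50 CPM and the small proteoglycan gene *Aspn* at 456 against 0.790 CPM. Receptors for vasoactive signals were among the leading genes too. *Ednra*, the endothelin A receptor, stood at 691 against 1.66 CPM and *Cysltr2*, a cysteinyl leukotriene receptor, at 197 against 0.396 CPM.

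Within the 181 cells, contractile genes divided the members. With a limit of 5 UMIs per 10000 for *Acta2* (smooth muscle actin, chr19:34241090-34255590, minus strand), *Tagln* and *Myh11* together, 92 cells were contractile-high (24 in Control, 52 in CCA and 16 in CCANT) and 89 contractile-low (32, 39 and 18). The limit cuts a range: 26 cells lay between 2.5 and 10 per 10000, and 41 had no UMI of these genes. Contractile-high cells were 42.9% of the members with 3 or 4 rule genes in Control, 57.1% in CCA and 47.1% in CCANT, with overlapping exact intervals (29.7 to 56.8, 46.3 to 67.5 and 29.8 to 64.9).

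By choice, *Acta2* stood at 2907 CPM in contractile-high and 21.0 in contractile-low cells. Other genes, which the same cells supply and which are a description, followed. *Kcnj8* was at 82.9 CPM in contractile-high against 907 in contractile-low cells, a log2 ratio of -3.45 that was -3.87, -3.22 and -3.49 in Control, CCA and CCANT. *Abcc9* was at 358 against 2476 CPM, a log2 ratio of -2.79 (-3.21, -2.56 and -2.74 by library). Both K-ATP channel subunits were low where contractile genes were high, in each library. *Kcnj8* is a rule gene that helped choose these cells, and *Abcc9* is not.

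Of 7732 genes with enough UMIs, 355 (4.59%) were called higher and 583 (7.54%) lower in contractile-high cells, with 310 and 469 of them on the same side in all 3 libraries and a median log2 ratio of -0.13 over all genes. Of 10 tested contractile and smooth muscle genes other than the 3 that made the split, 8 were called higher and 0 lower. *Myocd*, the coactivator that turns on smooth muscle genes, was at 230 against 12.8 CPM, and the tropomyosin genes *Tpm1* and *Tpm2* at 2266 against 448 and 1134 against 129 CPM. *Lmod1*, which nucleates actin filaments in smooth muscle, was at 294 against 16.4 CPM.

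Of K-ATP and other ion channel genes 3 of 14 were called higher and 3 lower in contractile-high cells. Their sums were 5939 against 8003 CPM, while the median log2 ratio was 0.21. The list holds *Abcc9* and the rule gene *Kcnj8*, described above. Of cyclic nucleotide genes 1 of 12 was called higher and 3 lower. Of 10 vasoactive receptors 2 were called higher and 0 lower. Single genes among the higher ones are given as values. The potassium channel beta subunit gene *Kcnab1* was at 1440 CPM in contractile-high against 23.7 in contractile-low cells, *Pde3a*, a cyclic nucleotide phosphodiesterase, at 2019 against 539, and the calcium channel beta subunit gene *Cacnb2* at 1637 against 520 CPM. *Npy1r*, a neuropeptide Y receptor, stood at 78.1 against 11.9 and the serotonin receptor gene *Htr1b* at 67.6 against 4.56 CPM. Among growth control genes, the PDGF ligand gene *Pdgfa* was at 321 against 44.7 and the G1 cyclin gene *Ccnd2* at 456 against 50.2 CPM. The guidance ligand gene *Slit3* stood at 146 against 2.74 CPM.

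Called higher in contractile-low cells were 9 of 34 other pericyte genes and 6 of 13 transporter genes. *Atp13a5*, a transport ATPase used as a pericyte marker, was at 70.0 CPM in contractile-high against 474 in contractile-low cells. The laminin chain gene *Lama2* was at 328 against 1102, the growth factor gene *Ptn* at 38.6 against 432 and the eotaxin gene *Ccl11* at 8.86 against 92.1 CPM. *Slc16a12*, a creatine transporter gene, was at 99.0 against 353 CPM. The other rule genes were under 2-fold apart. *Rgs5* stood at 13108 against 7223 CPM, *Higd1b* at 804 against 770 and *Pdgfrb* at 933 against 1699 CPM, a log2 ratio of -0.86 (-0.97 to -0.76) for the last. The endothelin receptor *Ednra* (750 against 625 CPM) and the nitric oxide receptor subunit *Gucy1b1* (673 against 745 CPM) were under 2-fold apart as well.

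Genes of other cells differed between the same cells. Of 11 endothelial genes 8 were called higher in contractile-low cells, with sums of 539 CPM in contractile-high against 1599 in contractile-low cells, and of 11 MG genes outside the rule 8 were called higher there and 1 lower, with 2539 against 5296 CPM. The log2 ratio of the MG sums was -1.70 in CCA and -1.18 in CCANT but 0.67 in Control. Of 5 microglia genes 4 were called higher in contractile-high cells, with 736 against 119 CPM. By library their sums had ratios of 4.82 in Control, -1.55 in CCA and -1.11 in CCANT. The pooled direction thus rests on Control, where 1 of the 56 cells reached the microglia class limit. Of 4 fibroblast genes 3 were higher in contractile-low cells as well, with 224 against 549 CPM. In the stricter set described below, 80 contractile-high and 74 contractile-low cells remained, with endothelial sums of 538 against 1050, MG sums of 2011 against 2713 and fibroblast sums of 210 against 531 CPM. Microglia sums in that set were 48.5 against 76.9 CPM, the other way from the pooled sums above. There *Kcnj8* was at 82.9 against 1112, *Abcc9* at 338 against 3023 and *Pdgfrb* at 918 against 2019 CPM, log2 ratios of -3.74, -3.16 and -1.14, so *Pdgfrb* passed 2-fold in that set. The part of such RNA in the other genes named here was not tested.

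**Figure D3:**
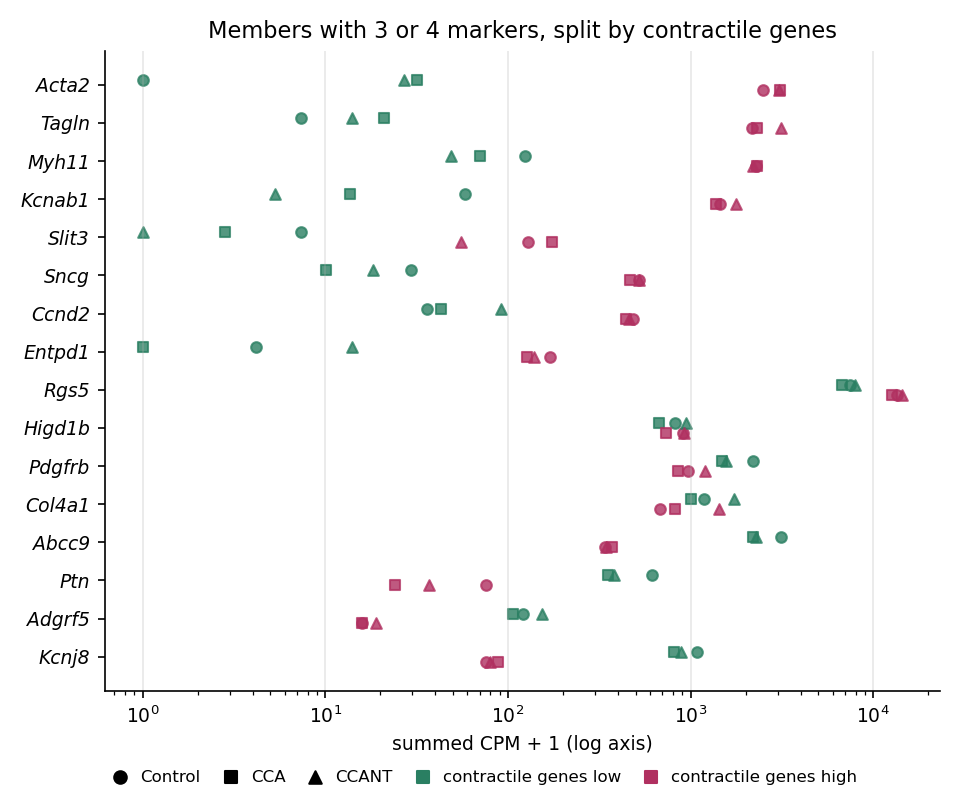
Points give summed CPM plus 1 (log axis) of 16 genes in contractile-high and contractile-low members with 3 or 4 rule genes, with circles for Control, squares for CCA and triangles for CCANT. *Acta2*, *Tagln* and *Myh11* made the split; *Kcnj8* and *Abcc9* lie lower in the contractile-high cells of each library, and the *Higd1b* points overlap.

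Compared between libraries over all 353 members, most pericyte genes outside the rule were called lower in CCANT. The rule genes chose the cells and are given as values. *Rgs5* stood at 7961 CPM (7777 to 8149) in Control, 7423 in CCA and 2801 (2737 to 2865) in CCANT. *Kcnj8* was at 416, 266 and 81.7 CPM and *Abcc9* at 1238, 770 and 227 CPM. In CCANT over Control, 994 of 9565 genes (10.4%) were called higher and 807 (8.44%) lower, with a median log2 ratio of 0.00. Of 33 other pericyte genes 26 were called lower and of 13 contractile genes 13, with medians of -2.09 and -2.34, and 6 of 7 astrocyte genes higher, with a median of 1.48. *Gfap* was at 746, 907 and 2763 CPM. The members with astrocyte genes hold 78.0% of the CCANT member UMIs against 22.2% in Control, and in the members with 3 or 4 rule genes the summed other pericyte and contractile lists stood at -0.08 and -0.15 on the log2 scale. In CCA over Control, 393 of 8731 genes (4.5%) were called higher and 153 (1.75%) lower, and none of the other pericyte or contractile genes was among them. CCANT over CCA had 485 of 10415 genes (4.66%) called higher and 779 (7.48%) lower.

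Among the members with 3 or 4 rule genes, differences in pericyte genes were smaller than over all members. The 4 rule genes summed to 13542, 12391 and 13495 CPM in Control, CCA and CCANT, which holds in part because they chose the cells. *Rgs5* stood at 10551, 10169 and 10605 CPM. The 35 other pericyte genes summed to 17962, 14424 and 17023 CPM, a log2 ratio of -0.32 (-0.35 to -0.28) in CCA and -0.08 (-0.12 to -0.03) in CCANT over Control, with 0 of 34 called in CCA and 1 of 33 in CCANT. Here 395 of 6986 genes (5.65%) were called higher and 93 (1.33%) lower in CCA, and 118 of 4475 (2.64%) higher and 107 (2.39%) lower in CCANT, with medians over all genes of -0.00 in both. Genes at least 2-fold enriched in these cells over other cells were 10 of the 395 and 26 of the 93 in CCA. They were 14 of the 118 and 26 of the 107 in CCANT. The share of such genes among all tested genes is not given here. In CCANT over CCA the counts were 88 of 6427 (1.37%) and 328 (5.1%).

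The single pericyte gene called against Control was *Tbx18*, a transcription factor of mural cells, at 40.0 CPM (26.1 to 58.5) in Control, 53.4 in CCA and 111 (80.6 to 149) in CCANT, a log2 ratio of 1.47 (0.74 to 2.23) in CCANT. The intervals of Control and CCA overlapped and that of CCANT lay above both. Other members of the list were closer together. *Notch3*, the Notch receptor of mural cells, was at 1540, 1330 and 1438 CPM, *Cspg4* at 512, 449 and 547 and *Ebf1* at 2748, 2266 and 2598 CPM.

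Contractile genes did not differ past 2-fold in these cells. *Acta2* was at 1288, 1771 and 1284 CPM, *Tagln* at 1117, 1325 and 1314 and *Myh11* at 1239, 1354 and 951 CPM. The summed list was at 9251, 10021 and 8360 CPM, and 0 of 13 genes was called in either comparison. Contractile-high cells held 51.6%, 57.3% and 41.9% of the UMIs of these cells, and within them *Acta2* was at 2498, 3065 and 3030 CPM.

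A stricter set, added after these data had been seen, kept members with 3 or 4 rule genes that had under 10 UMIs per 10000 of the 4 MG genes and low levels of endothelial, microglial, astrocyte and rod markers. It held 48, 79 and 27 cells, with up to 25870, 36788 and 15093 UMIs. It set no limit on bipolar or amacrine genes, and genes of other cells remained in it, as given below. There, 305 of 6118 genes (4.99%) were called higher and 78 (1.27%) lower in CCA, and 38 of 3484 (1.09%) higher and 117 (3.36%) lower in CCANT, while CCANT over CCA had 69 of 5359 (1.29%) higher and 448 (8.36%) lower. The other pericyte genes summed to 19150, 15140 and 20479 CPM, a log2 ratio of -0.34 (-0.37 to -0.30) in CCA, and *Tbx18* stood at 43.8, 54.9 and 118 CPM. The set is given beside the results below, since genes of other cells were present in members with 3 or 4 rule genes. Microglia genes summed to 1380, 98.3 and 50.4 CPM, and 1 Control cell carried microglia markers at the class limit. Endothelial markers reached the class limit in 0, 6 and 3 of the 56, 91 and 34 cells, and endothelial genes summed to 762, 990 and 1634 CPM. The limit counts *Flt1*, which cells with MG markers carry too. Only 2 members with 3 or 4 rule genes lay in the cluster with *Pecam1* at 811 and *Cldn5* at 2567 CPM. Rod genes summed to 2190, 1105 and 2598, and bipolar and amacrine genes to 332, 712 and 1074 CPM. In the stricter set these were 76.6, 60.6 and 26.7 for microglia, 792, 693 and 931 for endothelial, 994, 825 and 1160 for rod and 336, 777 and 187 CPM for bipolar and amacrine genes. tdTomato UMIs were found in 0, 11 and 0 of the 56, 91 and 34 cells.

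**Figure D4:**
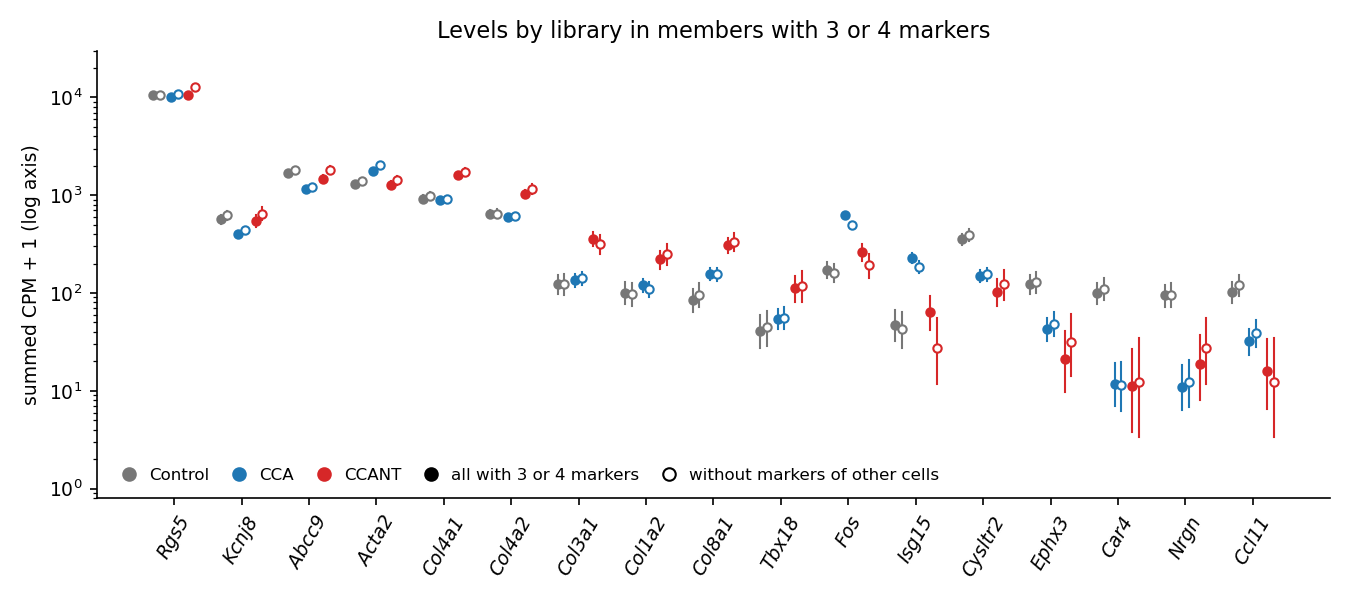
Points give summed CPM plus 1 (log axis) with exact 95% Poisson intervals for 17 genes, by library. Filled points are members with 3 or 4 rule genes. Open points are the stricter set, in which markers of other cells were limited but not absent. *Col4a1*, *Col3a1*, *Col8a1* and *Tbx18* are highest in CCANT, *Fos* and *Isg15* highest in CCA, and *Cysltr2*, *Car4*, *Nrgn* and *Ccl11* highest in Control, in both sets.

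K-ATP and other ion channel genes summed to 8030, 6446 and 6565 CPM in members with 3 or 4 rule genes, and 2 of 14 were called higher in CCA and 0 of 11 in CCANT. *Kcnj8* itself was at 566, 398 and 545 CPM and *Abcc9* at 1686, 1144 and 1475 CPM, lower in CCA by 0.51 and 0.56 on the log2 scale. Summed levels weigh deep cells more, and the deepest contractile-low cells had 24053, 44363 and 47669 UMIs. Contractile-high cells, which were low in both genes, held 51.6%, 57.3% and 41.9% of the UMIs. The part of either in these ratios was not tested. The channel genes called in CCA were *Kcnma1*, the large-conductance potassium channel (76.8, 296 and 119 CPM), and *Cacna1d*, an L-type calcium channel (84.5, 182 and 68.1 CPM). Both are also neuronal genes, and bipolar and amacrine genes were higher in CCA as well, in the stricter set too, and the part of such RNA in these values was not tested.

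Cyclic nucleotide genes, which relax or hold contraction, summed to 11949, 11246 and 10703 CPM, with 1 of 12 called in CCA and 0 of 10 in CCANT. *Prkg1*, the cyclic GMP-dependent kinase, was at 3987, 4315 and 3995 CPM, and *Pde5a*, which breaks down cyclic GMP, at 549, 424 and 383 CPM. Vasoactive receptors summed to 1727, 1431 and 1425 CPM, with 0 of 8 called in CCA and 1 of 7 in CCANT. That gene was the endothelin B receptor *Ednrb*, at 90.7, 67.4 and 42.9 CPM, while *Ednra* was at 750, 677 and 641 CPM. The leukotriene receptor *Cysltr2*, which is not on that list, was called lower in both and is described with the member-enriched genes.

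Of the growth factor axis between pericytes and endothelium, 2 of 15 genes were called higher in CCA (*Vegfa* and *Kdr*) and 1 of 11 in CCANT. The latter was *Flt1*, a VEGF receptor, at 124, 217 and 366 CPM, with 69 of its 145 CCANT UMIs in 1 cell. *Flt1* was at 122, 102 and 160 CPM in the stricter set, and cells with MG markers carried it at 1307 CPM. Cells with endothelial markers, of which *Flt1* is one, had it at 1484, 1294 and 1242 CPM, and endothelial sums in the members were higher in CCA and CCANT, whose part in *Flt1*, *Kdr* and *Vegfa* was not tested. *Pdgfrb* stood at 1561, 1120 and 1410 CPM. No gene of the Notch list was called in either comparison, with sums of 3452, 3180 and 3377 CPM. Of 13 TGF-beta and BMP genes in CCANT, *Tgfb2* was called higher (114, 188 and 232 CPM, with 31 of its 92 CCANT UMIs in 1 cell) and *Bmp5* lower (188, 96.8 and 88.3 CPM), and 0 of 15 was called in CCA.

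The summed matrix list was higher in CCANT, with 1 of its 17 tested genes called. Basement membrane and matrix genes summed to 6393, 6640 and 9026 CPM, a log2 ratio of 0.05 (0.00 to 0.11) in CCA and 0.50 (0.43 to 0.56) in CCANT, with a median over 17 genes of 0.44 in CCANT against -0.00 over all genes. In the stricter set the sums were 6741, 6495 and 9667 CPM, with 0.52 (0.45 to 0.59) in CCANT, and in cells with MG markers the list was at 2476, 2829 and 2625 CPM. *Col18a1* alone passed 2-fold in CCANT, at 21.5, 59.6 and 192 CPM, and 1 CCANT cell held 37 of its 76 UMIs there. It was at 25.5, 59.6 and 107 CPM in the stricter set, with too few UMIs in Control and CCANT for a call. Endothelial sums in the same members stood in the same order (762, 990 and 1634 CPM; 792, 693 and 931 in the stricter set), and their part in the matrix values was not tested.

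The main chains of the vascular basement membrane lay under that limit but clear of counting error. *Col4a1* was at 921 CPM (848 to 997) in Control, 903 in CCA and 1609 (1487 to 1739) in CCANT, a log2 ratio of 0.81 (0.64 to 0.97). Control and CCA did not separate and CCANT stood above both. *Col4a2*, its partner chain, was at 641, 600 and 1037 CPM, and *Sparc*, a collagen-binding protein, at 1053, 1160 and 1740 CPM. *Sparc* also stood at 1408 CPM in cells with MG markers. Of the laminin genes, *Lama4* was at 254, 268 and 363 CPM, a log2 ratio of 0.52 (0.19 to 0.85) in CCANT, while *Lama2* was at 828, 637 and 643 CPM.

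Fibrillar collagens, also made by perivascular fibroblasts, were higher in CCANT too. *Col3a1* was at 121, 135 and 356 CPM, a log2 ratio of 1.55 (1.14 to 1.97), and *Col1a2* at 99.9, 119 and 219 CPM, 1.14 (0.65 to 1.62). In the stricter set these ratios were 1.37 and 1.36, with *Col3a1* at 122, 140 and 317 CPM. They were the 2 genes of the fibroblast list with enough UMIs. The fibroblast list summed to 255, 327 and 736 CPM in members with 3 or 4 rule genes and to 11.1, 14.1 and 16.1 CPM in cells with MG markers.

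Among genes at least 2-fold enriched in members, *Col8a1*, a short-chain collagen of vessel walls, was at 84.5 (63.7 to 110), 157 (136 to 180) and 305 CPM (253 to 365), a log2 ratio of 1.85 (1.38 to 2.34) in CCANT. The intervals of the 3 libraries did not overlap. *Loxl2*, which cross-links collagen, was at 44.6, 84.4 and 98.4 CPM, *Adamts10*, a secreted metalloprotease, at 33.8, 48.0 and 83.2 and *Chp2*, a calcium-binding protein, at 23.1, 32.5 and 93.3 CPM. *Col8a1* was at 94.9, 155 and 332 CPM in the stricter set, a log2 ratio of 1.81.

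Several genes enriched in members were lower in both treated libraries. *Car4*, a membrane carbonic anhydrase, was at 98.4 CPM (75.7 to 126) in Control, 10.8 (5.93 to 18.2) in CCA and 10.1 (2.75 to 25.8) in CCANT, log2 ratios of -3.18 (-4.13 to -2.33) and -3.29 (-5.20 to -1.86). The treated libraries overlapped each other and lay below Control. *Car4* was nearly absent from cells that were not members, at 0.0721 CPM, and in the stricter set stood at 109, 10.4 and 11.4 CPM. *Nrgn*, a calmodulin-binding protein gene, was at 93.8, 10.1 and 17.7 CPM.

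The leukotriene receptor *Cysltr2* was at 352 CPM (308 to 401) in Control, 148 (128 to 170) in CCA and 101 (72.1 to 137) in CCANT, log2 ratios of -1.25 and -1.80, and at 392, 155 and 122 CPM in the stricter set. It was at 393, 76.2 and 43.4 CPM in contractile-low cells and at 313, 201 and 181 CPM in contractile-high cells, where neither treated library was 2-fold below Control. *Ccl11*, a chemokine that attracts eosinophils, was at 101, 31.0 and 15.1 CPM. *Ephx3*, an epoxide hydrolase, was at 123, 41.8 and 20.2 CPM. *Agmo*, which cleaves ether lipids, was at 151, 57.3 and 60.5 CPM, and *Chst3*, a chondroitin sulfotransferase, at 56.9, 18.6 and 10.1 CPM. *Eps8*, an actin-capping protein gene, was lower in CCA (416, 166 and 272 CPM) and called there only.

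Single genes called lower in CCANT included *Slc8a1*, the sodium-calcium exchanger, at 530 CPM (476 to 589) in Control, 402 (368 to 438) in CCA and 129 (95.8 to 169) in CCANT, a log2 ratio of -2.04 (-2.50 to -1.62) in CCANT that was -1.65 in the stricter set. *Atp1b1*, a beta subunit of the sodium pump, was at 195, 126 and 27.7 CPM, a ratio of -2.81. *Slit3* was at 69.2, 101 and 22.7 CPM and *Dgkg*, a diacylglycerol kinase, at 132, 134 and 47.9 CPM.

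Few member-enriched genes were higher in CCA, 10 of the 395 called and 4 of 305 in the stricter set. *Thbs1*, the antiangiogenic matrix protein thrombospondin 1, was at 15.4, 60.4 and 20.2 CPM, a log2 ratio of 1.97 (1.02 to 3.09), and at 16.4, 64.4 and 30.5 CPM in the stricter set. It stood at 74.1 CPM in contractile-high against 3.65 in contractile-low cells, and at 20.9, 104 and 48.2 CPM by library in the former. *Lgals9*, a galectin, was at 38.4, 91.4 and 75.7 CPM. Among the largest called differences in CCA over all genes were genes that other cells carry at higher levels. *Naaladl2* (4.61, 60.4 and 42.9 CPM) stood at 286 CPM and *Nlgn1*, a synaptic adhesion gene (66.1, 484 and 192 CPM), at 4080 CPM in cells with MG markers. MG genes outside the rule summed to 2834, 4224 and 4189 CPM in members with 3 or 4 rule genes and to 2014, 2435 and 2423 in the stricter set, and their part in these values was not tested.

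Interferon-stimulated genes were higher in CCA. In members with 3 or 4 rule genes they summed to 3264, 4322 and 2693 CPM, a log2 ratio of 0.41 (0.33 to 0.48) with 9 of 33 called higher and a median of 0.54 in CCA, and -0.28 (-0.38 to -0.17) with 2 of 15 called lower in CCANT. In the stricter set the CCA ratio was 0.11 (0.03 to 0.20), with 4 of 29 called. Cells with MG markers were at 5139, 3614 and 2346 CPM, lower in CCA. Contractile-low cells were at 2649, 5239 and 2963 CPM and contractile-high cells at 3843, 3640 and 2319 CPM, so among these cells the higher CCA sum was seen in the former. Over the 3 libraries the sums were 4016 CPM in contractile-low and 3518 in contractile-high cells. In the stricter set they were 2921 and 3410 CPM, the other way, and the libraries were not compared within each there. CCA contractile-low cells had up to 29.5 MG-gene UMIs per 10000, and the part of such RNA was not tested.

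*Isg15*, a ubiquitin-like modifier induced by interferon, was at 46.1 CPM (31.1 to 65.8) in Control, 225 (200.2 to 253) in CCA and 63.1 (40.8 to 93.1) in CCANT, a log2 ratio of 2.29 (1.74 to 2.88) in CCA. CCA lay above both other libraries, which overlapped. It was at 42.0, 184 and 26.7 CPM in the stricter set. *Ifit3* was at 38.4, 181 and 45.4 CPM and *Ifit1*, which binds foreign RNA, at 27.7, 114 and 53.0 CPM. *Iigp1*, an interferon-gamma-induced GTPase, was at 232, 235 and 65.6 CPM, called lower in CCANT.

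Antigen presentation genes went the other way in CCA. They summed to 3192, 2100 and 1687 CPM, log2 ratios of -0.60 (-0.69 to -0.52) and -0.92 (-1.05 to -0.79), with 2 of 13 called lower in CCA and 1 of 9 in CCANT. The stricter set gave -0.52 and -0.91, and cells with MG markers were at 4007, 2345 and 2011 CPM, also lower in both. *B2m*, the light chain of class I molecules, was at 764, 507 and 424 CPM and the heavy chain gene *H2-K1* at 721, 431 and 398 CPM. Both stood lower in each treated library by less than 2-fold.

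**Figure D5:**
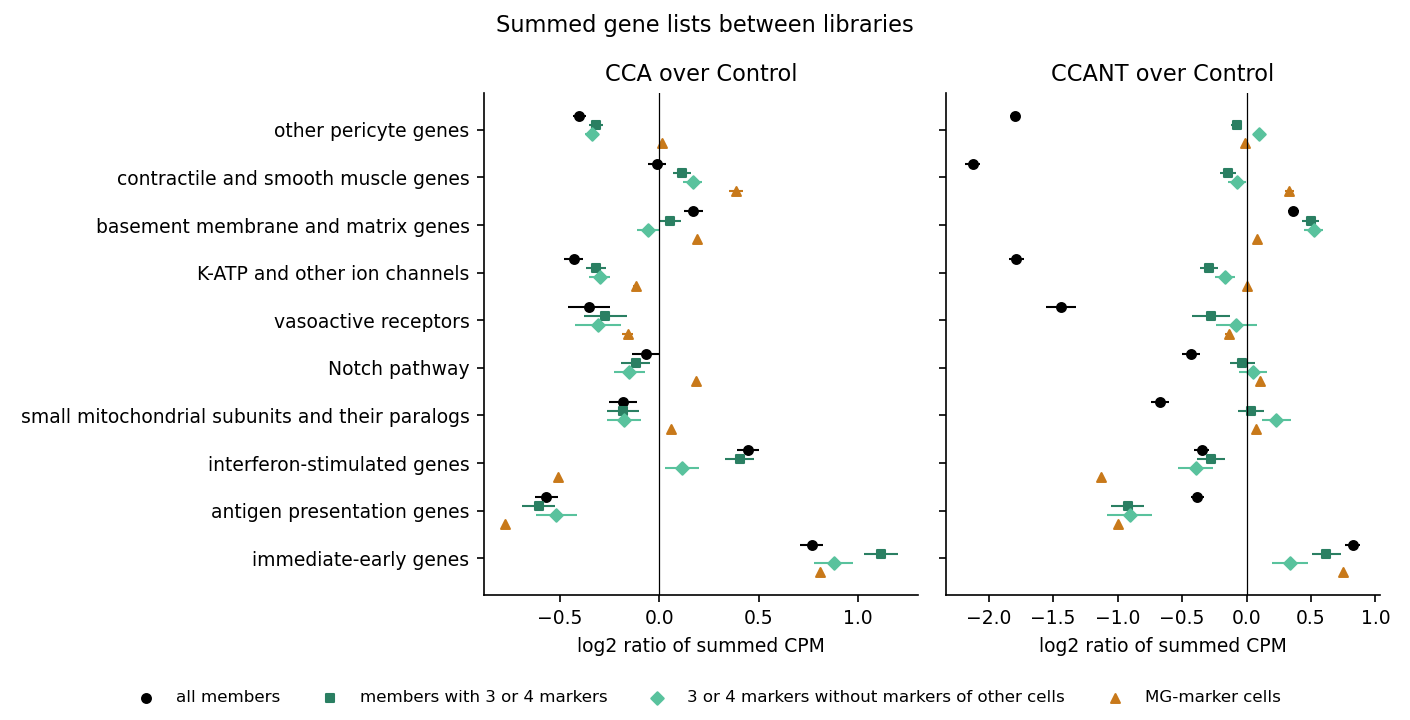
Points give the log2 ratio of the summed CPM of 10 gene lists, CCA over Control (left) and CCANT over Control (right), with exact 95% Poisson intervals, for all members, members with 3 or 4 rule genes, the stricter set and cells with MG markers. The pericyte and contractile lists lie at -1.80 and -2.12 in CCANT over all members and at -0.08 and -0.15 in members with 3 or 4 rule genes.

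Immediate-early genes, which rise within minutes of stimulation or tissue dissociation, were higher in both treated libraries. They summed to 2062, 4468 and 3170 CPM in members with 3 or 4 rule genes, with 9 of 19 called higher in CCA and 5 of 14 in CCANT and log2 ratios of 1.12 (1.03 to 1.20) and 0.62 (0.51 to 0.73). The stricter set gave 0.88 and 0.33. *Fos* was at 172, 627 and 260 CPM, *Jun* at 267, 743 and 436 and *Egr1* at 99.9, 266 and 245 CPM. Cells with MG markers had 5114, 8947 and 8598 CPM of this list and cells with rod markers 660, 1309 and 1234, so the same order of Control below both treated libraries was present outside the members. Its part in the members' values was not tested.

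Small mitochondrial subunits include paralogs typical of pericytes. *Ndufa4l2*, a paralog of a complex IV subunit that is induced by low oxygen, was at 842, 769 and 883 CPM in members with 3 or 4 rule genes, against 22.8 CPM in cells with MG markers and 2.62 in cells with rod markers. Its paralog *Ndufa4* was at 129, 129 and 166 CPM in these members and at 958 in cells with rod markers. *Cox4i2*, the hypoxia-type subunit of complex IV, was at 332, 275 and 272 CPM in the members but at 498 in cells with MG markers. None of the 8 genes of this list with enough UMIs was called in either comparison.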

How the data were processed

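Cells of 3 libraries (Control, CCA and CCANT, 1 each) were analysed from the matrices of UMI counts per gene and barcode that the authors deposited, whole counts without normalization. The submitters' processing notes name Cell Ranger 6.1.1, and intronic reads were counted on mm10 (GRCm38) with tdTomato and GFP added. The authors' joint table of kept cells, also counts, was used only to look up how many members it holds (0, 1 and 0).

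Members were found by the rule given in the report, in 12482, 14201 and 15923 barcodes, and UMIs were summed per library (Python 3.11.15, numpy 2.4.6, scipy 1.17.1). Poisson, conditional binomial and Clopper-Pearson intervals are at 95%. Y-linked genes, *Xist*, *Tsix*, tdTomato and GFP were left out of calls. The call rule was run on simulated Poisson sums, the model that its intervals assume. That run cannot show how the rule behaves where cells or libraries vary beyond counting error. Clusters used scanpy 1.11.5, leidenalg 0.10.2 and igraph 0.11.9 (2000 variable genes, 10 components, 15 neighbours, resolution 0.5). No doublet caller was run. Some genes of the lists are not reported here, though sums and medians include them. Other classes were defined by markers. Cells with MG markers had at least 60 UMIs per 10000 of the 4 MG genes and rule genes under the lower limit for members. Cells with rod markers had at least 10 UMIs per 10000 of 4 rod genes.

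Genes named are those of 30 lists with at least 20 UMIs in the members of a library, the 25 genes with the highest ratio to other cells among genes with at least 30 UMIs in each library, and the 10 largest called differences each way among genes 2-fold enriched in members and 5 each way among all, unless 1 cell held over 20% of the UMIs. Genes named for the contractile split were chosen from its own largest differences or after their values were seen. The members, lists and rules were chosen with earlier results of these data known. The alternatives were other limits of the rule, subsets of members, other scalings, UMI minimums and cells of 1 sex.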

Additional observations from a re-analysis of the deposited data

Results flagged for a closer look

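The summed levels of 18 gene lists, in CCA over Control and in CCANT over Control, were compared between members and cells with MG markers. A list was flagged when all members and the stricter set had log2 ratios of 1 sign and cells with MG markers the other. All 3 intervals had to leave out 0. This flagged 3 lists, each in CCA over Control and none in CCANT over Control. The difference between the cell sets was not tested, and each rests on 1 library per group. Interferon-stimulated genes stood at 0.45 over all members, 0.11 in the stricter set and -0.51 in cells with MG markers. Notch pathway genes stood at -0.068, -0.15 and 0.19 in the same order. The first of these had an interval of -0.14 to -1.2e-06, which all but touches equality. Small mitochondrial subunits and their paralogs stood at -0.18, -0.18 and 0.058. This last list holds the rule gene *Higd1b*, which helped choose the members and is limited in cells with MG markers. *Higd1b* was at 634 CPM in Control and 474 in CCA over all members, and its part in the list ratio was not tested. Sex differed between the Control and CCA libraries, and its part in these ratios was not tested.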

How the results depend on the processing

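Each group is 1 library of 2 to 4 pooled retinas, so nothing here separates a treatment from the mice, sex or preparation of a library. No paired analysis was possible because each group has 1 library. The make-up of the members is a further limit: subsets with several rule genes are small, with 34 cells in CCANT, and genes under 50 UMIs could not be compared there.

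The share of members was 0.528%, 0.842% and 0.606% in Control, CCA and CCANT with at least 10 rule-gene UMIs per 10000, 0.501%, 0.727% and 0.353% with at least 2 rule genes, 0.492%, 0.697% and 0.240% with at least 3, and 0.422%, 0.605% and 0.190% in the stricter set, which was added after seeing the data. With MG genes under 10 per 10000 it was 0.796% in CCA and 0.458% in CCANT.

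The summed contractile list, -0.01 in CCA over Control over all members, was -0.058 with at least 2000 detected genes, -0.17 with rule genes at 10 or more, 0.12 with at least 2 and with at least 3 rule genes, 0.27 with MG genes under 10, 0.087 without endothelial markers, 0.17 in the stricter set, 0.039 with median-of-ratios scaling and 0.33 as a mean over cells. In CCANT (-2.12) the same list was -1.84 with rule genes at 10 or more, -0.81 with at least 2 and -0.15 with at least 3 rule genes, -0.98 with MG genes under 10, -0.075 in the stricter set, -1.99 with median-of-ratios scaling and -1.27 as a mean over cells. The matrix list in CCA (0.17) was 0.073 with rule genes at 10 or more, 0.068 with at least 2 and 0.055 with at least 3 rule genes, 0.090 with MG genes under 10, 0.11 without endothelial markers, 0.22 with median-of-ratios scaling and 0.28 as a mean over cells, and it reversed to -0.054 in the stricter set. In CCANT (0.36) it was 0.31 with rule genes at 10 or more, 0.21 with at least 2 and 0.50 with at least 3 rule genes, 0.28 with MG genes under 10, 0.52 in the stricter set, 0.49 with median-of-ratios scaling, 0.43 as a mean over cells and 0.44 in cells with Y-linked UMIs only.

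Interferon-stimulated genes in CCA (0.45) were 0.36 with rule genes at 10 or more, 0.23 with at least 2 rule genes, 0.22 with MG genes under 10 and without endothelial markers, 0.11 in the stricter set and 0.63 as a mean over cells. In CCANT (-0.35) they were -0.42 with at least 2 and -0.28 with at least 3 rule genes, -0.51 with MG genes under 10, -0.21 with median-of-ratios scaling and -0.0078 as a mean over cells. Immediate-early genes in CCA (0.77) were 0.96 with rule genes at 10 or more, 0.88 with at least 2 and 1.12 with at least 3 rule genes, 0.37 with MG genes under 10, 0.88 in the stricter set and 1.13 as a mean over cells. In CCANT (0.82) they were 1.06, 0.72 and 0.62 with the same rule-gene limits, 0.42 with MG genes under 10, 0.33 in the stricter set, 0.96 with median-of-ratios scaling, 1.26 as a mean over cells and 0.95 in cells with Y-linked UMIs only.

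The log2 ratios of some single genes in CCANT over Control changed sign with the subset, several of them to values near 0. *Rgs5* (-1.51) was 0.0074 with at least 3 rule genes and 0.29 in the stricter set, *Higd1b* (-2.16) 0.12 and 0.40, *Tagln* (-1.83) 0.23 and 0.26, and *Col4a1* (-1.22) 0.81 and 0.80. In the stricter set *Kcnj8* (-2.35) was 0.047, *Pdgfrb* (-2.33) 0.085, *Acta2* (-2.00) 0.024 and *Ifit3* (1.22) -1.40.

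Genes called higher in CCA (393) were 631 with rule genes at 10 or more, 593 with a minimum of 1 UMI in each library and 232 with a minimum of 100, and those called lower (153) were 93 with at least 3 rule genes, 78 in the stricter set and 444 and 76 under these minimums. In CCANT over Control, genes called higher (994) were 534 with at least 2 and 118 with at least 3 rule genes, 517 with MG genes under 10, 38 in the stricter set and 631 in cells with Y-linked UMIs only, and those called lower (807) were 266, 107, 364 and 117 in the first 4 and 1344 with a minimum of 1 UMI. In CCANT over CCA, genes called higher (485) were 88 with at least 3 rule genes, 69 in the stricter set and 763 with a minimum of 1 UMI, and those called lower (779) were 260 and 328 with at least 2 and at least 3 rule genes, 396 with MG genes under 10, 448 in the stricter set and 1271 with a minimum of 1 UMI. Over all alternatives, 45 of 70 counts of calls, 310 of 482 gene ratios and 27 of 84 list ratios kept within their limits. The causes of these differences were not tested.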

Other observations

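In members with 3 or 4 rule genes, genes of S and G2/M phase summed to 109, 238 and 129 CPM (Control, CCA and CCANT), and to 111, 150 and 130 CPM in the stricter set, where the CCA log2 ratio was 0.43 (-0.01 to 0.88). Cells with MG markers had 83.8, 247 and 140 CPM of the same genes. CDK inhibitors, G1 cyclins and their kinases summed to 1214, 1155 and 1153 CPM, and 0 of 10 was called in CCA and 0 of 7 in CCANT.

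Heat shock genes summed to 2998, 3208 and 3132 CPM and hypoxia and glycolysis genes to 1302, 1394 and 1455 CPM in members with 3 or 4 rule genes, with no heat shock gene called. Transporter genes of pericytes summed to 5010, 3752 and 4456 CPM, with *Slc12a2*, a sodium-potassium-chloride cotransporter, at 444, 277 and 260 CPM. Inflammatory and adhesion genes summed to 1386, 1618 and 1332 CPM.

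In CCANT, UMIs of *Xist* and of Y-linked genes were found together in 35 of 141 members (24.8%) and in 2828 of 14183 passing cells (19.9%).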
